A study of Mus musculus with 2 samples.

Results

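CHD2 peaks that lay close together in mouse embryonic stem cells were examined here as clusters. The members were chosen by measured values, namely the positions of called peak summits. On the numbered autosomes, neighbouring summits of the optimal peak list were chained where the gap between them was at most 12500 bp, and the peaks of every chain with at least 3 summits were kept. This gave 1255 clustered peaks in 345 chains, out of 8134 autosomal peaks and 8282 peaks in all. They were set against 4989 peaks that stood alone, the single-summit peaks, and the remaining 1890 peaks lay in 945 chains of 2 summits. The data are ChIP-seq with an antibody to CHD2 in ES-E14, an established male embryonic stem cell line of strain 129/Ola. There was 1 group of 2 biological replicates, with no treatment, mutant or other genotype. The optimal list (coordinates on mm10) was made from both replicates together, each replicate also had a relaxed list of 300000 peaks, and a separate list of 4613 peaks was on mm9. With 1 group, no test over samples was possible, and every comparison below is a description of called peaks. The cell type could not be checked from these data by expression, because only binding was measured.

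CHD2 is a chromodomain helicase, an ATP-dependent enzyme that moves and assembles nucleosomes. It is known to sit with RNA polymerase II at active genes and to help deposit the histone variant H3.3. In embryonic stem cells many regulatory elements lie close together, some around a busy promoter and some as dense enhancer groups far from any promoter. A cluster of binding sites can therefore cover several neighbouring starts, a start and its surroundings, or a stretch of DNA with no start at all.

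By summed signal, 868, the strongest cluster lay at the major histocompatibility complex (MHC) class II genes on chromosome 17, and its sequences are shown first because every summit there held the same short letters. MHC class II genes encode the surface proteins that present peptides to helper T cells, and their promoters are known to share an X box, bound by RFX proteins, and a Y box, an inverted CCAAT box bound by NF-Y. The windows below run 50 bp to each side of 7 summits of the mm9 list, on the plus strand of the NCBIM37 (mm9) genome, and are named by the nearest gene and the distance of the summit from its transcription start site (TSS). A minus sign means upstream. Capitals mark ATTGG or CCAAT, and CTNGCAAC or its reverse complement GTTGCNAG. The second set of letters was chosen after the sequences had been seen.
H2-Ab1, -5471 bp, chr17:34394633-34394733: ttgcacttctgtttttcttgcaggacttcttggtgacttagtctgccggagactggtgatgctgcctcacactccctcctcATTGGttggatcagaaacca
H2-Ab1, -1501 bp, chr17:34398603-34398703: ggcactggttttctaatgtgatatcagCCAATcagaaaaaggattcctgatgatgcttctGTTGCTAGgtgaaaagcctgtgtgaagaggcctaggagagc
H2-Aa, -62 bp, chr17:34424784-34424884: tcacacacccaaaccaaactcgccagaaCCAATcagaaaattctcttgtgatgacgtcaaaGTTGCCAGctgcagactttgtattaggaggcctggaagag
H2-Aa, -3937 bp, chr17:34428659-34428759: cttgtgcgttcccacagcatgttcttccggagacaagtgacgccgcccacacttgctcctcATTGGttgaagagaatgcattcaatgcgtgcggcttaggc
H2-Aa, -8443 bp, chr17:34433165-34433265: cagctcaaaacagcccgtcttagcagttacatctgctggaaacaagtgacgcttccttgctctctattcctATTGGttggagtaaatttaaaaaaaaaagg
H2-Eb1, -921 bp, chr17:34441857-34441957: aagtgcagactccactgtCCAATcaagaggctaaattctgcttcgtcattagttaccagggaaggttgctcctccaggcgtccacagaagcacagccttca
H2-Eb1, -68 bp, chr17:34442710-34442810: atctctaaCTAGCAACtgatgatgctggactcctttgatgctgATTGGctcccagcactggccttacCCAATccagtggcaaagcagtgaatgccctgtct

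With the eighth class II summit, at H2-Ab1 and not printed because its window reaches transcribed sequence, all 8 windows held a CCAAT box. Over the 186 clustered peaks of the mm9 list 36.6% held one. Of the 8 windows 3 also held CTNGCAAC, and the H2-Aa and H2-Eb1 promoters each had it upstream of ATTGG when read along the gene. Among 27025 RefSeq promoter windows, which run from 250 bases before to 50 after a start, 37.9% held a CCAAT box, 3.55% held CTNGCAAC and 1.37% held both. Those windows are longer than the summit windows, so their shares are not like for like. In summit windows of the mm9 single-summit peaks the shares were 38.8%, 1.36% and 0.707%. These are letter matches and not shown to be bound sites.

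In the mm10 list the class II summits fell into 2 chains, and all 8 were strong in both replicates. The signal is the deposited value per peak, in the peak caller's own units, and is comparable only within a list. A weak signal can come from few cells or from little binding in many, which bulk ChIP-seq cannot tell apart. The chain of H2-Aa, the class II A alpha gene, and H2-Eb1, the E beta gene, ran from 34287889 to 34305815 on chromosome 17 with 5 summits. Their signals in order were 82.9, 220, 214, 101.1 and 250. The replicates' own lists gave 43.1, 112, 98.1, 38.7 and 111 in replicate 1 and 40.6, 105, 116, 61.1 and 141 in replicate 2. The lowest of the 5 was thus the H2-Aa promoter summit and the highest the H2-Eb1 promoter summit in the optimal list and in replicate 2. In replicate 1 the highest lay 3938 bp upstream of H2-Aa and the lowest 906 bp upstream of H2-Eb1.

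The chain of H2-Ab1, the A beta gene, had summits 5483, 1520 and 44 bp upstream of the start, with signals of 140, 174 and 165. Replicate 1 gave 67.4, 76.5 and 78.8 there, and replicate 2 gave 72.6, 97.9 and 87.1. All 3 stood well above the median of single-summit peaks, which was 32.7 in the optimal list, 16.9 in replicate 1 and 17.1 in replicate 2. Single-summit peaks with another class II gene as the nearest had signals of 185 for H2-Oa, 184 for H2-DMb2, 128 for H2-DMb1 and 53.0 for H2-Ob. Only the H2-DMb1 and H2-Ob summits lay within 1 kb of the start. The H2-DMb2 summit lay 1 to 10 kb upstream of the start, and the H2-Oa summit over 10 kb upstream. The region was therefore occupied beyond the clustered stretch too. These single-summit peaks were named after their values were seen.

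Most chains were short and many were compact. Of the 345 chains 220 had 3 summits, 78 had 4, 25 had 5, 13 had 6, and 9 had 7 or more, up to 12. The median span from first to last summit was 7208 bp, with quartiles of 2823 and 12201 bp and a range of 404 to 59958 bp. Chromosome 11 held the most chains, 37, and the count on the other autosomes ran from 10 to 27.

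Within the chains 910 gaps separated neighbouring summits, with a median of 1289.5 bp and a minimum of 199 bp. Of these gaps 419 (46.0%) were under 1 kb, and 268 pairs of neighbouring called intervals overlapped. A called interval was most often 360 bp wide, in 91.6% of clustered and 86.7% of single-summit peaks. When summits under 1 kb apart were merged, 46 chains were left with 1 summit, 165 with 2 and 134 with 3 or more. Only 454 peaks then met the rule for a chain of 3. Whether neighbouring summits under 1 kb apart are separate binding sites or 1 broad site called more than once was not tested.

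**Figure D1:**
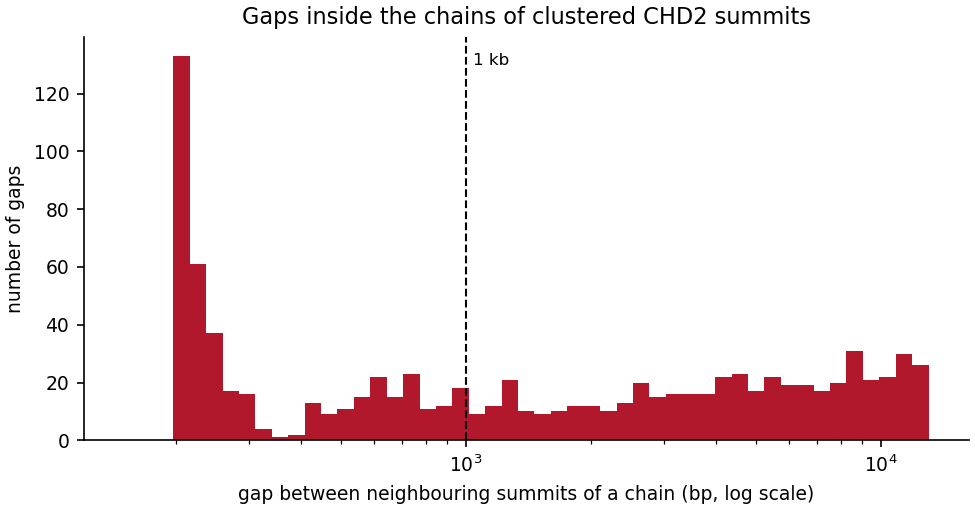
Histogram of the 910 gaps between neighbouring summits inside the 345 chains, on a log axis in bp, with a dashed line at 1 kb. One mass of gaps sits between the minimum of 199 bp and about the 360 bp width of a called interval, and the rest spreads out to the limit of 12500 bp.

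The chaining limit fell in a continuous range of gaps. Gaps just inside it were 12476 bp between peaks at Mrpl53 and Wbp1, with signals of 46.9 and 97.6, and 12370 bp at Hspb8, with 22.4 and 20.9. Gaps just outside it were 12530 bp at Capsl, with 138 and 37.9, 12535 bp between Tmem259 and Abca7, with 106 and 49.6, and 12548 bp between Alkbh6 and Sdhaf1, with 129 and 32.1.

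In the optimal list clustered peaks were most often 1 to 10 kb from a gene's start. This ranking and the size of their difference at promoters depended on the settings. A peak was placed at a promoter where its summit was no more than 1 kb from the TSS of a protein-coding gene, taken as the gene's outer 5′ end. Of clustered peaks 27.6% were promoter peaks (95% interval 25.1 to 30.1%), against 36.5% of single-summit peaks (35.2 to 37.9%), a difference of -8.93 percentage points (-11.7 to -6.07). Summits 1 to 10 kb from a TSS made up 39.1% of clustered peaks, against 14.9% of single-summit peaks. Distal summits, over 10 kb from any TSS, made up 33.3% of clustered peaks, against 48.6% of single-summit peaks, a difference of -15.3 points (-18.2 to -12.3). The intervals cover counting error only, and neighbours within a chain are not independent, so they are too narrow. On the mm9 list the promoter difference turned round, with 45.7% of 186 clustered peaks and 42.4% of 3677 single-summit peaks, and after merging summits under 1 kb apart it shrank to -4.75 points. It was -4.23 points with a gap limit of 25 kb and -2.05 with a promoter window of 2.5 kb. On chains built from replicate 1's strongest peaks, without replicate 2, it was -3.53. The class from 1 to 10 kb was not always the largest. On the mm9 list 85 of the 186 clustered peaks were promoter peaks, 65 lay 1 to 10 kb from a start and 36 were distal. Promoter peaks led with the 2.5 kb window, at 39.0%, and distal peaks led narrowly with the 25 kb gap, at 34.4%.

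**Figure D2:**
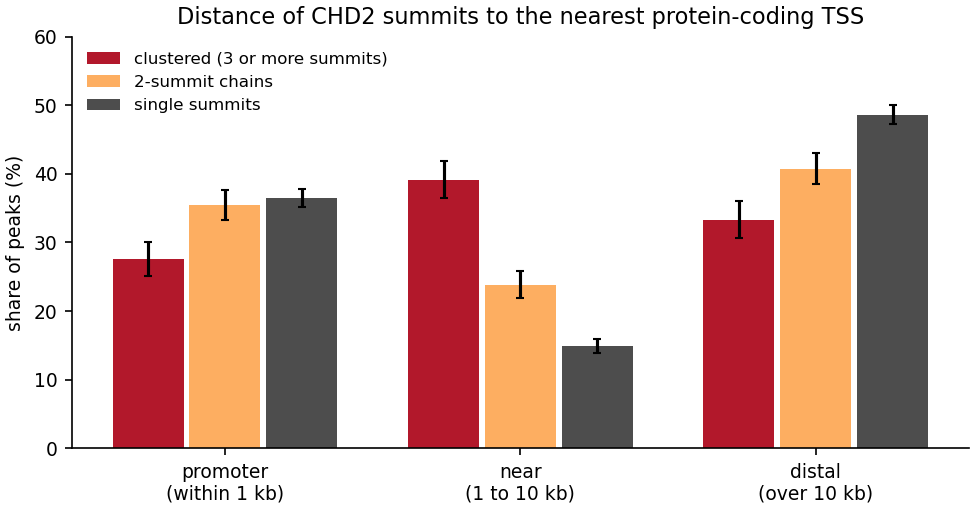
Share of peaks in percent by distance of the summit to the nearest protein-coding TSS, for 1255 clustered peaks, 1890 peaks of 2-summit chains and 4989 single-summit peaks, with exact 95% intervals as bars. Clustered peaks had 39.1% in the class from 1 to 10 kb, against 14.9% of single-summit peaks, and lower shares in the other classes.

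Part of the class from 1 to 10 kb is tied to the rule, since a chain that includes a promoter summit brings summits near a start with it. Of the 491 clustered peaks in that class, 302 (61.5%) lay in a chain that also held a promoter summit. Altogether 190 chains (55.1%) held a promoter summit and 155 held none. In 94 chains (27.2%) every summit was distal, and in 21 every summit was at a promoter.

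In the 169 chains with both promoter and other summits, the strongest summit was at a promoter in 111 (65.7%), whereas promoters held 43.6% of the summits in those chains. More of the clustered peaks also had several gene starts close by. At least 2 protein-coding starts were within 12500 bp of the summit for 33.8% of clustered peaks. For peaks of 2-summit chains it was 22.5%, and for single-summit peaks 16.4%. The median number of starts was 1 in each class. The window equals the chaining limit, and members of a chain can count the same starts, so these shares are not independent of the rule. The genes nearest to clustered summits had a median length of 12963.5 bp, against 28388 bp for those nearest to single summits and 17643 bp over all autosomal genes. In 238 chains all summits had the same nearest gene, in 82 they had 2 and in 25 they had 3 or more.

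The share of summits inside a protein-coding gene was 45.1% for clustered and 45.2% for single-summit peaks, a difference of -0.14 points (-3.20 to 2.95). Within 1 kb of a long non-coding RNA gene lay 14.3% of clustered and 14.7% of single-summit peaks. Small nucleolar RNA (snoRNA) genes, whose RNAs guide the modification of ribosomal RNA and often sit in introns of ribosomal protein genes, stood apart in count. Within 1 kb of one lay 18 of 1255 clustered peaks (1.43%, interval 0.852 to 2.26%), against 4 of 4989 single-summit peaks (0.0802%, 0.0218 to 0.205%). The 18 peaks belonged to 16 chains. They included the peak at the start of Atp5b, an ATP synthase subunit gene with Snord59a, with a signal of 401 (185 in replicate 1, 219 in replicate 2). The peak at Rpl27a, a large ribosomal subunit gene with Snora3, had a signal of 115 (56.2 and 61.3). The weakest, at Rabggtb with Snord45b, had 9.19, and its 2 members there shared replicate peaks of 5.35 and 13.3.

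The typical clustered peak was weaker than the typical single-summit peak in the optimal list, but each chain usually had a stronger leader. The median signal was 24.3 for clustered peaks (quartiles 16.5 and 37.5), against 32.7 for single-summit peaks (24.2 and 53.9), a ratio of 0.743. In the replicates' own values at the same peaks the medians were 14.2 against 16.9 in replicate 1 and 14.8 against 17.1 in replicate 2, ratios of 0.840 and 0.865. The quartile ranges overlapped in all 3 lists. Peaks of 2-summit chains had nearly the same medians as clustered peaks, 24.9 in the optimal list, 14.7 in replicate 1 and 15.3 in replicate 2, so the lower signal was not particular to chains of 3 or more. The ratio was 0.765 among promoter peaks, 0.710 from 1 to 10 kb and 0.764 among distal peaks. It was 0.924 after merging summits under 1 kb apart. Chains built by the same rule from the strongest peaks of a single replicate gave 1.00 in replicate 1 and 0.940 in replicate 2, so the lower signal did not recur in replicate 1's own list.

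**Figure D3:**
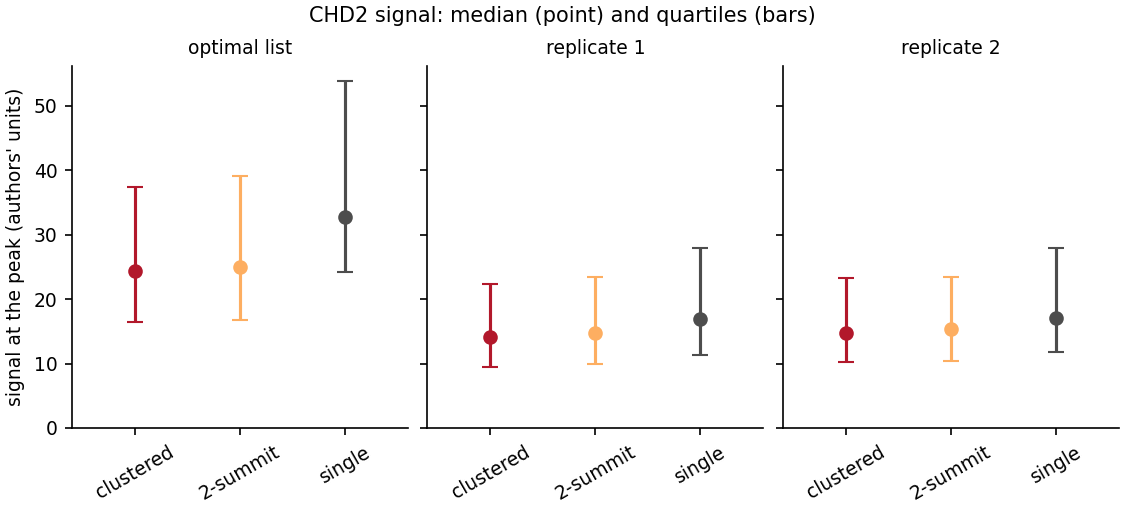
Deposited signal per peak in the authors' units, as medians (points) and quartiles (bars), for clustered, 2-summit and single-summit peaks in the optimal list and at the same peaks in each replicate. The clustered medians of 24.3, 14.2 and 14.8 lie below the single-summit medians of 32.7, 16.9 and 17.1, with overlapping quartiles.

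The strongest summit of each chain had a median of 44.5 in the optimal list, 23.4 in replicate 1 and 23.5 in replicate 2. The other 910 members had medians of 20.5, 12.3 and 12.8. The leader is the highest of at least 3 values by construction, so its level above single-summit peaks is no comparison of like with like. The highest signal in a chain was a median of 3.21 times the lowest, and the leader held a median of 46.7% of the chain's summed signal. Of the members 83 reached a signal of 100, and 71 chains were led by such a peak. Of 3 classes of chain the most compact was the weakest. Members of chains that merged to 1 summit had a median of 20.5, those of chains that merged to 2 had 22.8, and those that kept 3 or more had 27.3.

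Clustered peaks recurred less often between lists than single-summit peaks. Of clustered peaks 63.5% overlapped a peak of the conservative list, against 76.2% of single-summit peaks, a difference of -12.7 points (-15.6 to -9.78). Among the 8282 strongest peaks of replicate 1, 63.3% of clustered and 74.4% of single-summit peaks had an overlap. In replicate 2 the shares were 65.9% and 75.0%, and in both replicates together 44.8% and 56.9%. Over all positions, peaks of 2-summit chains lay between, with 68.5% in the conservative list, 65.9% in replicate 1 and 68.6% in replicate 2. Among promoter peaks the replicate 1 difference was -4.06 points (-8.84 to 0.162), against -13.8 from 1 to 10 kb and -11.8 among distal peaks. There 2-summit promoter peaks had 74.8%, below the 80.3% of clustered ones. The strongest peaks are chosen by signal, and clustered peaks had the lower signals, so recurrence is not separate from signal. No overlap at all in the relaxed list was found for 4.62% of clustered and 2.02% of single-summit peaks in replicate 1, and for 2.63% and 0.762% in replicate 2. The optimal list was made from these replicates, so the recurrence is not independent of the choice of members.

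Recurrence of clustered peaks is also counted generously, because 1 replicate peak can match several members. Of 1197 clustered peaks with a match in replicate 1, 458 (38.3%) shared it with another member, and in replicate 2 it was 452 of 1222 (37.0%). No single-summit peak shared its match, but the rule all but fixes this, since each lies over 12500 bp from any other summit. At the level of chains, 117 (33.9%) held at least 3 of replicate 1's strongest summits, 133 (38.6%) held at least 3 of replicate 2's, and 75 (21.7%) did so in both. In 170 chains neither replicate did, and 8 chains held no such summit in either. After merging summits under 1 kb apart the differences between clustered and single-summit peaks were -6.65 points for the conservative list, -5.94 for replicate 1 and -2.91 for replicate 2.

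The genes at the chains were counted next. A gene was at a chain when its TSS was the nearest protein-coding start of a clustered summit. Of 20359 autosomal protein-coding genes 484 (2.38%) were at a chain, and 4287 (21.1%) were nearest to a single summit. The gene lists were chosen with earlier results on these data known, so their shares are descriptions. Of 29 pluripotency genes, a list of factors and markers of the stem cell state, 13 were at a chain (44.8%, interval 26.4 to 64.3%). They lay in 13 chains. Of the same 29, 16 (55.2%) were nearest to a single summit. Of 30 signalling feedback genes, which are switched on by growth factor and cytokine signals and in part restrain them, 7 (23.3%) were at a chain. Of these 30 genes, 17 (56.7%) were nearest to a single summit.

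Genes of replication-dependent histones, which package new DNA in S phase, had 18 of 63 at a chain (28.6%), in 4 chains, while 4 of 63 (6.35%) were nearest to a single summit. These genes lie side by side, so 1 chain can count many of them. The list was taken by gene symbol, and histone genes with other symbols were left out. Among these were H2bu2 and H3f4, in a chain on chromosome 11 with a highest signal of 58.4. Of 77 ribosomal protein genes 21 (27.3%) were at a chain, in 20 chains, and 16 (20.8%) were nearest to a single summit. Zfp zinc finger genes had 6 of 387 at a chain (1.55%, interval 0.571 to 3.34%), a range that includes the 2.38% of all genes, and 117 (30.2%) nearest to a single summit. None of 1098 olfactory receptor genes was at a chain (exact 95% upper bound 0.335%). None of 20 feeder fibroblast markers and none of 17 extraembryonic markers was, but with upper bounds of 16.8% and 19.5% these short lists set only loose limits.

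**Figure D4:**
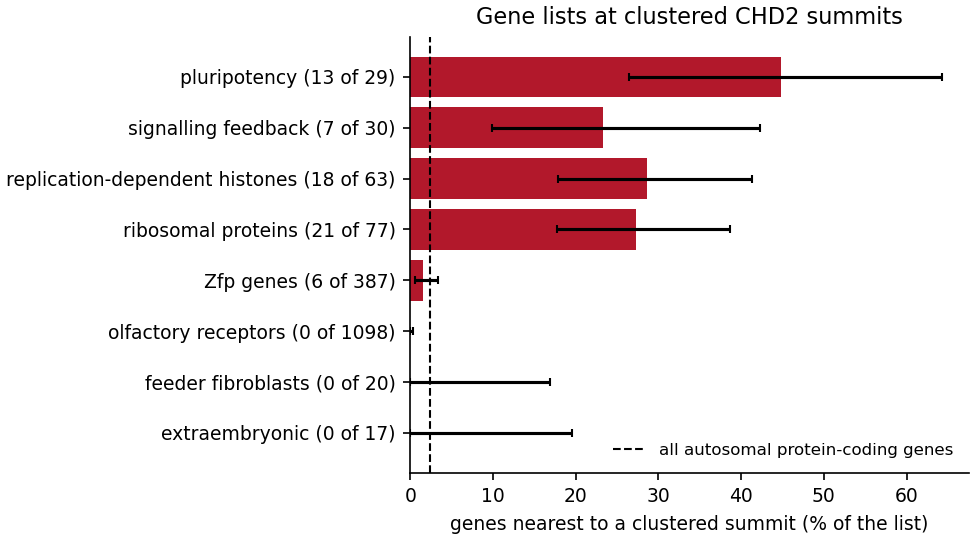
Share of each gene list, in percent, whose TSS was the nearest to a clustered summit, with exact 95% intervals as bars and the 2.38% of all 20359 autosomal protein-coding genes as a dashed line. The pluripotency list reached 44.8%, histones 28.6%, ribosomal proteins 27.3% and signalling feedback 23.3%.

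Among the pluripotency genes, the cluster at Pou5f1, the gene of the factor OCT4, ran over 12877 bp on chromosome 17 from 35504076 to 35516953. Its summits at 1956 and 1198 bp upstream of Pou5f1 had signals of 67.8 and 34.4, with 36.4 and 19.0 in replicate 1 and 32.8 and 19.0 in replicate 2. A summit 3496 bp downstream of the Pou5f1 start had 19.0, and a summit 2770 bp downstream of the Tcf19 start had 26.0. The strongest, 77.1, lay 96 bp upstream of Cchcr1, with 35.7 in replicate 1 and 35.4 in replicate 2. No summit of the chain was within 1 kb of the Pou5f1 start. The corresponding mm9 chain had 4 summits over 12878 bp, and its last was the strongest, as the Cchcr1 summit was on mm10. This last mm9 summit, 129 bp upstream of its nearest start, that of Tcf19, held ATTGG at 2 places, in capitals:
Tcf19, chr17:35653848-35653948: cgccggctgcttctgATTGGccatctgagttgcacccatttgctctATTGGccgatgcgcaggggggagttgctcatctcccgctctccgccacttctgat

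At Sox2, which encodes the partner factor of OCT4, all 4 summits were distal. They lay 95476 to 111423 bp downstream of the start on chromosome 3. A known distal control region of Sox2 in embryonic stem cells also lies downstream of the gene, and overlap of each summit with it was not tested. The signals of the 4 summits were 46.1, 26.8, 13.4 and 23.5. Replicate 1 gave 24.4, 14.8, 5.15 and 20.5 there, and replicate 2 gave 17.8, 19.2, 7.86 and 8.03. The third summit was the lowest in all 3 lists. At Klf4, a factor used in reprogramming, 4 distal summits 54907 to 68089 bp downstream of the start had signals of 15.7 to 72.5, and the strongest had 47.4 in replicate 1 and 27.6 in replicate 2. At Esrrb, an orphan nuclear receptor gene, 3 summits lay 137891 to 143270 bp downstream of the start, with signals of 31.4, 57.3 and 22.9.

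Nanog, a homeobox factor gene, had summits 17187, 4904 and 4172 bp upstream with signals of 22.5, 66.7 and 15.6. Replicate 1 gave 6.36, 37.7 and 13.0 there, and replicate 2 gave 14.1, 28.4 and 14.5, so the middle summit led in each. Phc1, a Polycomb gene near Nanog on chromosome 6, had 5 summits from 665 to 7292 bp upstream, with signals of 21.7 to 56.9. Tdgf1, a co-receptor of Nodal, had 52.5 at 1424 bp upstream and 22.3 at 138 bp upstream, with 27.4 and 9.20 in replicate 1 and 26.7 and 11.7 in replicate 2. Fbxo15, an F-box gene, had 67.2 at 80 bp upstream, with 34.9 in replicate 1 and 32.4 in replicate 2. A summit 608 bp upstream of Fbxo15 had 44.6, but 35.7 in replicate 1 and 6.47 in replicate 2.

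The other pluripotency chains were weaker. At Tet1, an enzyme that oxidises methylcytosine, the 4 signals ran from 12.0 to 31.2, at Jarid2, a Polycomb cofactor, from 15.8 to 29.9, and in the chain of Lin28a, an RNA-binding regulator of let-7, from 18.5 to 34.5. At Dppa5a, an RNA-binding protein of early embryos, 2 summits reached 27.7 and 15.8. At Mycn, a MYC family factor, 3 summits within 838 bp had 22.8, 6.98 and 45.0, and they merged to 1.

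Of the signalling feedback genes, Dusp6, a phosphatase that switches off ERK, was the nearest gene of 2 chains. At its start 3 summits had 52.1, 8.88 and 19.3. Another chain, 196988 to 205955 bp downstream, had 16.8, 64.1 and 39.98, and its middle summit differed between the replicates, with 48.6 in replicate 1 and 14.9 in replicate 2. At Egr1, an immediate early transcription factor, 4 summits within 1428 bp, 2755 to 4183 bp beyond the start, had signals of 8.34 to 48.3 and merged to 1. Ier2, also an immediate early gene, had 3 summits of 25.9 to 32.9. Etv5 and Spry2, an ETS factor and an inhibitor of receptor signalling, had distal chains with highest signals of 36.3 and 29.1. Nodal, a ligand of the TGF-beta family, had a highest signal of 26.9. The chain nearest to Myc was distal, 25497 to 27456 bp downstream of its start, with a highest signal of 23.3.

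The longest cluster covered the histone genes on chromosome 13 from 23526119 to 23586077, with 10 summits over 59958 bp. It named 8 histone genes, from H4c8 to H4c4, and its summed signal was 859. The highest signal, 217, lay 50 bp upstream of H2ac7, with 94.1 in replicate 1 and 121 in replicate 2. The next, 184, lay 4925 bp upstream of H4c8, with 94.7 and 89.0. The summit 20 bp upstream of H2ac8 had 53.9 and 57.0 in replicate 2, with no overlapping peak in replicate 1. The lowest, 19.0, lay at the start of H3c6. In the other 3 histone chains of the gene list, signals ran from 13.7 to 88.3, and the highest was 88.3 at H1f5, a linker histone gene. Near-identical histone genes could share reads, and how the authors treated such reads is not given in the sources used here.

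In 13 of the 20 chains at ribosomal protein genes the strongest summit was at a promoter, against 132 of all 345 chains. Among all chains with both promoter and other summits it was 111 of 169 (65.7%). In the chain of Lypd4, Rps19 and Cd79a, the summit 14 bp upstream of Rps19, a small subunit gene, had 361, with 210 in replicate 1 and 155 in replicate 2. The other 7 summits had 8.17 to 43.8. Rpl26 and Rpl10a, large subunit genes, had 385 and 332 at their starts, with no more than 24.6 and 30.6 at their other summits. Rps28 had 260 and Rpl7a 267 at the start. By contrast, all 6 summits at Rps12 lay 2768 to 6444 bp beyond the start and had 16.6 to 42.3, and at Rps24 and Rplp1 no summit lay within 1 kb of the start either.

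Other clusters at strong promoters included Med1 and Cdk12 on chromosome 11. Med1, a Mediator subunit, had 135 at its start, with 63.2 in replicate 1 and 75.5 in replicate 2. Cdk12, a kinase of the RNA polymerase II tail, had 436, the highest signal of any clustered peak, with 237 in replicate 1 and 201 in replicate 2. The chain of Exosc4, Gpaa1, Cyc1 and Maf1 on chromosome 15 had a summit within 1 kb of all 4 starts. Maf1, a repressor of RNA polymerase III, had 297 (135 and 163) and the others 37.9 to 93.8. Cyb5d1, next to the H3K27 demethylase gene Kdm6b, had 289 (146 and 141).

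**Figure D5:**
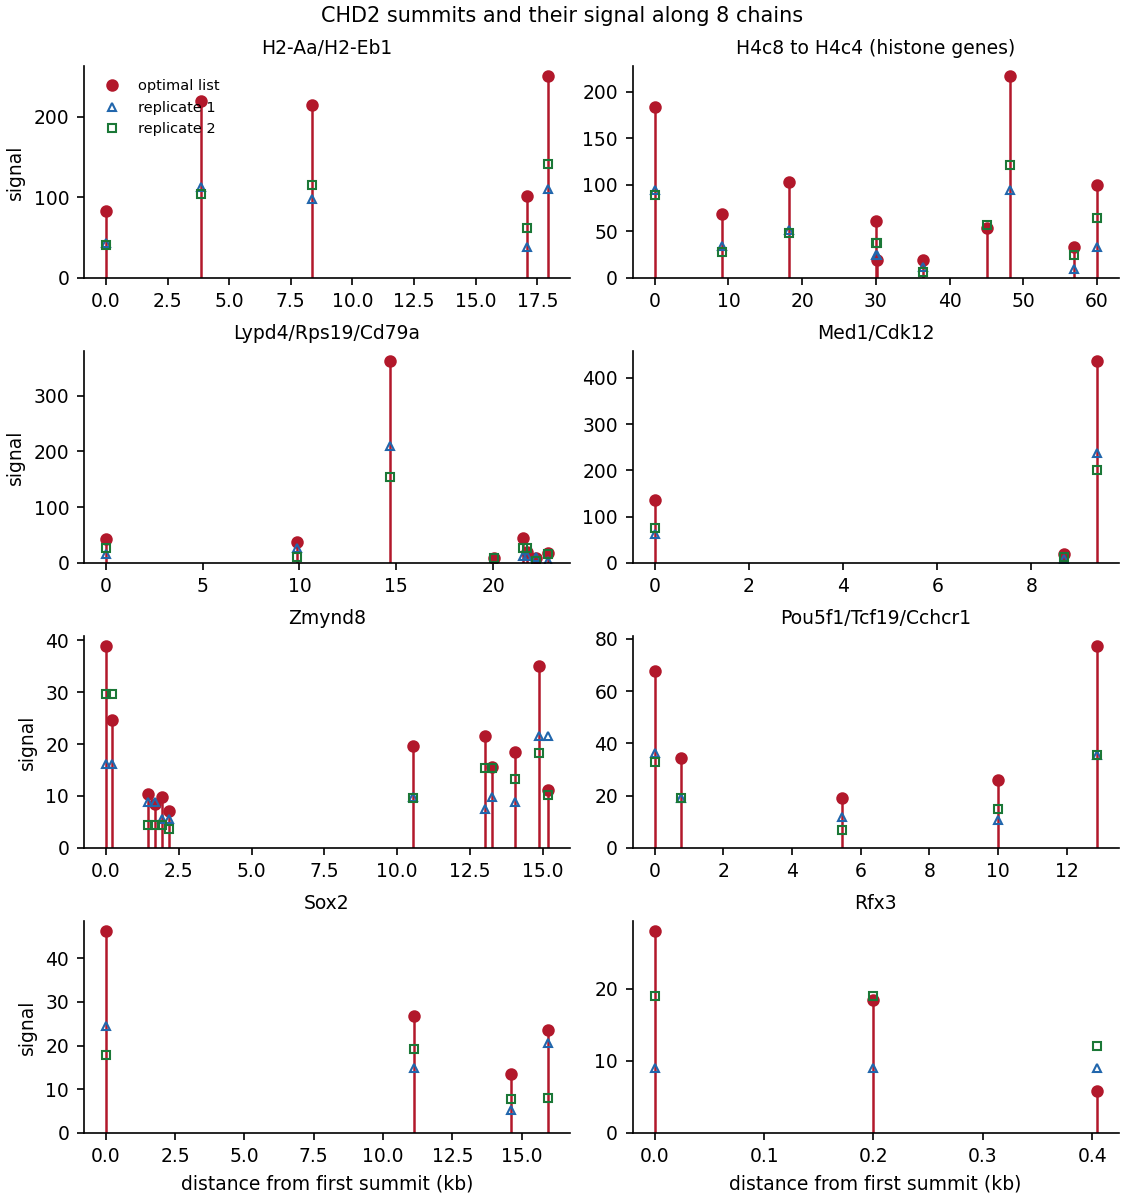
Signal of every summit along 8 chains, against distance from the first summit in kb, in the optimal list (filled circles with stems), replicate 1 (triangles) and replicate 2 (squares). The 5 summits at H2-Aa and H2-Eb1 are all at 82.9 or more, 1 summit of 361 leads at Rps19, Cdk12 reaches 436, the 12 at Zmynd8 reach at most 38.8, and the 3 at Rfx3 lie within 404 bp.

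Among the 8 chains with the most summits several were weak. The largest lay inside Zmynd8, a chromatin reader gene on chromosome 2, with 12 summits over 15174 bp, 73868 to 89042 bp from its start. The signals ran from 7.14 to 38.8, 6 of the 12 overlapped the conservative list, and the summits merged to 4. The chain between Spen and Fblim1 on chromosome 4 had 10 summits with 10.1 to 43.3 and merged to 6. Its first pair, at the non-coding gene B330016D10Rik, shared replicate peaks of 14.3 in replicate 1 and 2.87 in replicate 2. The chain nearest to Enc1 on chromosome 13 had 8 summits over 14507 bp, of which the first 5 lay inside the non-coding gene Lncenc1. Their signals were 34.1, 36.2, 17.98, 13.5 and 8.72. The chain upstream of Med13l on chromosome 5 had 8 summits with 6.45 to 41.0, 110778 to 125285 bp from the start, and that of Fbxl18 and Actb had 7 with 20.2 to 39.6. Replicate 2 had no overlapping peak at the Fbxl18 start, where replicate 1 had 26.6.

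Among the chains with only distal summits, the 3 with the highest summed signal were each carried by 1 peak. The chain nearest to Cygb and St6galnac2, with a summed signal of 457, had 405 at its first summit (199 in replicate 1, 207 in replicate 2), against 26.0 and 26.4 at the others. This summit was distal to protein-coding starts but lay 55 bp from the snoRNA host gene Snhg16. The third summit in Atrnl1, 57269 bp from the start on chromosome 19, had 212, with 120 in replicate 1 and 90.1 in replicate 2, while the other 2 had 18.5 and 6.93 and shared replicate peaks. The first summit near Oxr1, 284368 bp upstream on chromosome 15, had 203, with 87.0 in replicate 1 and 114 in replicate 2, and its neighbours had 19.8 and 6.65. The next chain, between Socs2, an inhibitor of cytokine signalling, and Mrpl42, was more even, with 48.3, 99.7 and 74.6. Replicate 1 gave 21.1, 59.4 and 30.1 there and replicate 2 gave 29.6, 43.8 and 44.4. The middle summit of the chain on mm9, 40674 bp from the Mrpl42 start, held a CCAAT box near its centre, in capitals:
Socs2 and Mrpl42, chr10:94923837-94923937: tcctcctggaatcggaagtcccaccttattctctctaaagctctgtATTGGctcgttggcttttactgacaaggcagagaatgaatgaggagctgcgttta

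The shortest chains show the compact end. Near Rfx3, the gene of an RFX factor, 3 summits within 404 bp had 28.0, 18.5 and 5.75, and all 3 overlapped a single peak of 8.97 in replicate 1. Near Pdgfrl 3 summits within 433 bp had 21.8, 7.62 and 6.19, and replicate 1 had no overlapping peak at the last. Both merged to 1 summit.

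Sequence was read on the mm9 list, where the same rule gave 186 clustered peaks in 58 chains, with a median span of 10221.5 bp, and 3677 single-summit peaks. These are fewer peaks, and the lowest signal was 32.7 in that list's own units, which are not comparable with those of the mm10 lists. Within the mm9 list the median signal was 48.8 for clustered and 51.7 for single-summit peaks. Of clustered peaks 14.5% (9.79 to 20.4%) lay in introns, against 22.7% (21.3 to 24.1%) of single-summit peaks, and 35.5% lay between genes, against 32.4%.

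The CCAAT box, searched as ATTGG or CCAAT within 50 bp of the summit, was in 36.6% of clustered peaks (68 of 186), against 38.8% of single-summit peaks, a difference of -2.22 points (-8.99 to 5.07). In windows 500 bp to either side it was in 11.0% and 11.8%. The GC box GGGCGG was in 12.4% and 14.7%, the ETS letters CCGGAAG in 5.91% and 5.14%, and the octamer ATGCAAAT, read by OCT factors, in 2.15% and 1.58%. Of the 12 motifs searched on both strands, only the TATA box TATAAA had an interval of the difference that did not cross 0. It was in 6.45% of clustered peaks, against 2.80% of single-summit peaks, a difference of 3.65 points (0.866 to 8.16), while the windows beside them held it in 6.18% and 5.97%. The clustered share was thus close to that of its own flanks. Outside the class II chains CTNGCAAC was in 1 of 178 clustered peaks (0.562%), and in single-summit peaks it was in 1.36%.

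Observed over expected CpG in 500 bp around the summit had a median of 0.489 in clustered and 0.451 in single-summit peaks. The order turned round in a 200 bp window, with 0.473 and 0.483, and the quartiles overlapped widely. Among promoter peaks the medians were 0.800 and 0.801.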

How the data were processed

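The labels give 2 biological replicates of CHD2 ChIP-seq in ES-E14 cells, and their replicate numbers are used here. Peak lists are the only data used. According to the deposited descriptions, an irreproducible discovery rate procedure, which rates how repeatable the ranks of peaks are, made the optimal and the conservative list from the relaxed list of each replicate, the pooled list and 1 input of undescribed role. The signal per peak is the value the authors deposited, with no stated normalization. The −log10 q-value the authors deposited was read and used in no result. Aligner, peak caller and filters: not given in the sources used here. Read depth is unknown.

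A summit was the deposited start plus the summit offset plus 1, and summits were chained at gaps of at most 12500 bp. Genes on mm10 were RefSeq genes of GRCm38.p6, with strand from the RefSeq promoter table (17492 genes) or, by symbol or synonym, from GENCODE M1 (4039). This covered 21531 of 21900 protein-coding genes, and starts inside a gene are missed. An optimal peak was matched to the strongest overlapping peak of a replicate, by at least 1 bp. Motifs and CpG were read on mm9, the build of the only genome sequence used, and no coordinate was moved between builds. Shares carry exact 95% Clopper-Pearson intervals, and differences carry Newcombe's intervals from Wilson bounds. Both cover counting error only, and no p-value was computed.

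The chains named were the 8 with the most summits, the 6 others with the highest summed signal, up to 10 others at a pluripotency or signalling feedback gene, the 3 not yet named with only distal summits and the highest summed signal and the 2 shortest. Results at some genes these rules named are not reported here. Further ribosomal, pluripotency, signalling and histone chains, the snoRNA peaks and the class II comparison were added after their values were seen. The members and the gene lists were chosen with earlier results of these data known. Chaining, promoter calls and overlaps were checked on simulated data, and the confidence intervals were not. Python 3.11 was used with numpy, pandas, scipy and matplotlib.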

Additional observations from a re-analysis of the deposited data

How the results depend on the processing

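Of 88 values under other settings 50 stayed within their tolerance, 35 moved and 3 turned round. All differences here are clustered minus single-summit peaks in percentage points, and signal ratios are clustered over single. The cause of each move was not tested. With a gap of 5 kb there were 727 clustered peaks at 243 genes, with a promoter difference of -14.3, a distal difference of -10.5 and a signal ratio of 0.715. With 25 kb the genes were 827, the promoter difference -4.23, the conservative difference -9.23 and the ratio 0.810. At least 4 summits left 595 peaks at 207 genes and a distal difference of -18.7. Merging summits under 1 kb apart left 454 peaks at 225 genes, differences of -4.75 (promoter), -20.2 (distal), -6.65 (conservative), -5.94 (replicate 1) and -2.91 (replicate 2), and a ratio of 0.924. The ratio was 0.715 on the conservative list, 0.771 beyond 1 kb from a TSS, and 0.840 and 0.865 with each replicate's own signal, an alternative chosen after the data were seen. A 2.5 kb promoter window gave -2.05, a distal limit of 50 kb gave -9.92, and a reciprocal overlap of 50% gave -18.2 (conservative), -18.1 (replicate 1) and -16.5 (replicate 2). On chains built from 1 replicate's strongest peaks, leaving out the other, the promoter difference ran from -6.47 to -3.53, the distal difference from -22.2 to -19.0 and the signal ratio from 0.940 to 1.003, the last without replicate 2. On the mm9 list the promoter difference turned round to 3.27, and CpG in 200 bp turned round to -0.00974. The CRE difference was -0.931 in windows of 100 bp, and the octamer difference was -1.28 beyond 1 kb from a TSS.

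No paired analysis was possible because there was 1 group of 2 replicates. The lists give no read depth, so the limits of detection are unknown. Chains with 3 or more summits after merging number 134, and statements on the others rest on summits under 1 kb apart.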

Other observations

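A cluster next to the microRNA genes Mir290a to Mir295, which are abundant in mouse embryonic stem cells, was noticed after its values were seen. It had 6 summits over 17537 bp on chromosome 7, all distal to AU018091 and Nlrp12, and its last summit lay 7885 bp before Mir290a. The signals in order were 48.5, 37.4, 11.0, 20.5, 15.7 and 28.6. The last summit differed between the replicates, with 7.30 in replicate 1 and 23.7 in replicate 2, and the third had no overlapping peak in replicate 1.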
